A study of Mus musculus with 6 samples.

Results

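The phagocyte NADPH oxidase was represented by 5 genes, Cybb, Cyba, Ncf1, Ncf4 and Rac2, taken by symbol from a table of 56748 mouse genes. Values are ribosome footprints, the short mRNA stretches of 24 to 36 nt that translating ribosomes protect from nuclease. The 2 groups compared were 3 libraries from Mov10 KO mice and 3 from wild-type (WT) mice, all of Lin-c-Kit+ cells (hematopoietic stem cells by their label). Both genotypes had received 4.5 Gy of IR (ionizing radiation) 12 days earlier. The kind of Mov10 allele, the tissue of origin, strain, age and sex do not appear in the sources used here, and the labels do not say whether replicates are separate mice, so p-values measure the spread between these libraries, which may be technical. An unirradiated group and matched mRNA levels were not analysed here, so a footprint difference can come from the amount of mRNA or from its translation.

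The oxidase makes superoxide from oxygen with electrons from NADPH, and neutrophils, monocytes and eosinophils use it against engulfed microbes. Cybb (gp91phox) and Cyba (p22phox) form the membrane-bound flavocytochrome, in which Cybb carries the electrons and Cyba stabilizes it and docks the cytosolic subunits. Ncf1 (p47phox) is the organizer that is phosphorylated on activation and brings the cytosolic subunits to the membrane, Ncf4 (p40phox) binds the phosphoinositide of the phagosome membrane, and Rac2 is the small GTPase that completes the active enzyme in neutrophils. Loss of subunits of this enzyme in humans causes chronic granulomatous disease.

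The library totals were 1118345 to 1352517 recovered reads in Mov10 KO and 2260348 to 2499634 in WT, so depth and genotype cannot be told apart. Mov10, an RNA helicase gene and the labelled target, had 51.0, 89.0 and 46.3 normalized reads in Mov10 KO libraries 1, 2 and 3, against 110.4, 106 and 104 in WT (limma log2 fold change -0.84, adjusted p = 0.0598), so Mov10 footprints were fewer but not absent. Kit, the receptor of the gate, averaged 1122 ± 35.7 normalized reads in Mov10 KO and 1099 ± 15.8 in WT (SD, n = 3 each). Markers of the neutrophil and B cell lineages were also read, some of which progenitors inside the gate can express. Of the neutrophil list, which includes S100a8 and Ltf, all 14 genes had reads in both groups, and so did all 12 genes of the B cell list.

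Promoter sequences are shown for Cybb, the catalytic subunit, and for Ncf1, the subunit whose footprints changed, because oxidase genes are known targets of the myeloid factor PU.1 (Spi1), alone or with an interferon regulatory factor such as Irf8, and footprints of these factors are given further on. RefSeq promoters, 250 bases before to 50 bases after the annotated start, were matched for 3 of the 5 genes (build GRCm38.p6). Capitals mark the PU.1 core GAGGAA and the ETS-IRF composite (GGAA, any 2 bases, then GAAA), searched on both strands.
Cybb, chrX:9469275-9469574, minus strand: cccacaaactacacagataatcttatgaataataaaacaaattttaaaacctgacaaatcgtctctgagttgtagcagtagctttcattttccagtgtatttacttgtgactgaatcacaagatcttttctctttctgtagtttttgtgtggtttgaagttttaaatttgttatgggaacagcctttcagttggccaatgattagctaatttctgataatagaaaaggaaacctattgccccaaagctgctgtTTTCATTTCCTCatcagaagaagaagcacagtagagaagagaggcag
Ncf1, chr5:134229576-134229875, minus strand: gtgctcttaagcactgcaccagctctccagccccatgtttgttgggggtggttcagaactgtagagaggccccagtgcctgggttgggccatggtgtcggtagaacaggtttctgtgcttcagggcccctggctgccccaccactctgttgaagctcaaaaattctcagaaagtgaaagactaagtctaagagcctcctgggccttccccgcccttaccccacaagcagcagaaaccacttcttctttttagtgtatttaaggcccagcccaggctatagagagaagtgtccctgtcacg
In Cybb 1 match of each motif lay on the reverse strand in the 50 bases after the annotated start, and the pair share the letters TTCC. Neither motif was found in the Ncf1 window or in that of Cyba. Over 32851 promoters of 300 bases, 28.3% held GAGGAA and 2.72% held the composite, and a match is a description of letters, not evidence of binding.

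Of the 5 subunits, 1 (Ncf1) was called higher in Mov10 KO and none lower, with 4 not called. The call is an adjusted p under 0.05 from limma on log2(normalized reads + 1), Benjamini-Hochberg adjusted over the 17114 genes whose 6-library mean reached 1 normalized read, a filter that all 5 members passed. By this test 10.3% of all tested genes were called higher, 10.9% lower and 21.2% in either direction. The 1 call among 5 members is near the share in either direction and does not set them apart. When only the 6307 genes averaging at least 50 normalized reads were fitted, 1532 were called higher and 1158 lower. With edgeR 29.5% were called (16.5% higher, 13% lower), with DESeq2 21% (11.9% higher, 9.1% lower), and in 39.8% the groups did not overlap (16.9% higher, 22.9% lower). The median log2 fold change was -0.07 over the 5 members and -0.17 over all tested genes. It was 0.0094 over the genes averaging at least 50 normalized reads, a level that all 5 members reached. In bulk libraries, fewer cells of a type and less RNA per cell cannot be told apart.

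**Figure D1:**
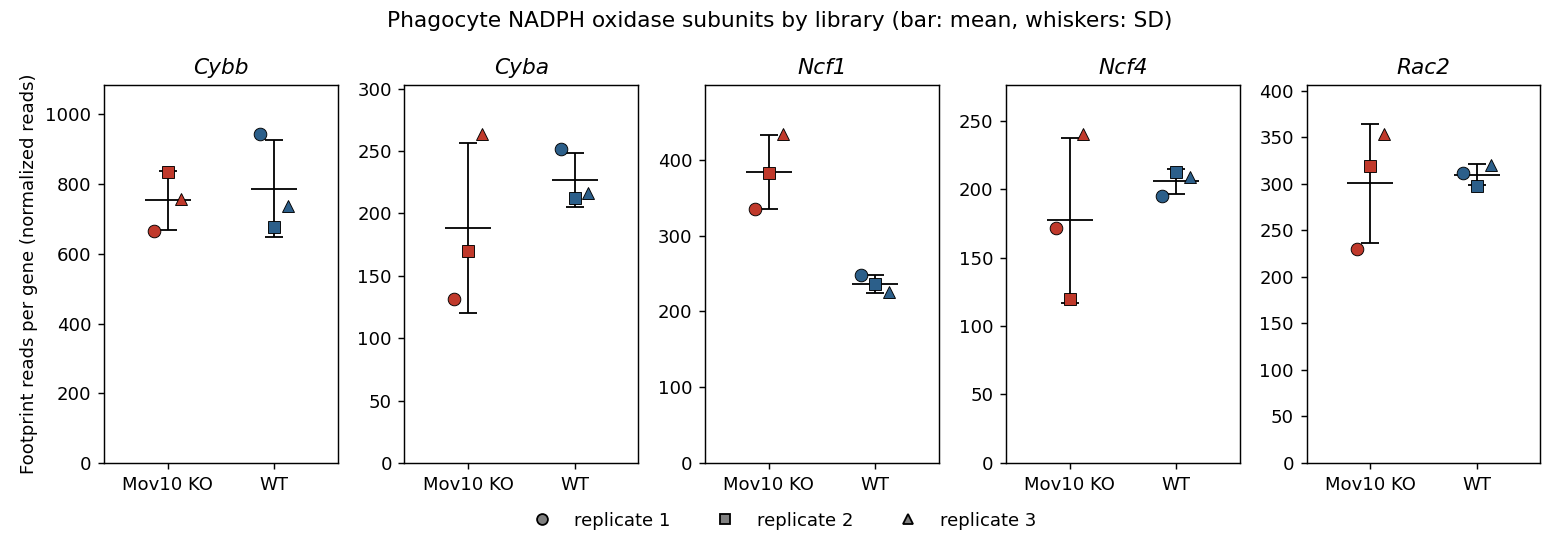
Normalized footprint reads of each oxidase subunit (vertical axis, from 0) in the 3 Mov10 KO and 3 WT libraries, with marker shapes for replicates, a bar for the mean and whiskers for the SD. The groups are apart for Ncf1, with Mov10 KO at 335 to 434 and WT at 226 to 249, and overlap for the other subunits.

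Cybb (ENSMUSG00000015340, chromosome X, 9301491 to 9354010, GRCm39) had 667, 836 and 757 normalized reads in Mov10 KO libraries 1, 2 and 3, against 943, 678 and 739 in WT libraries 1, 2 and 3. The groups overlapped, and WT replicate 1 stood highest. Means were 753 ± 84.9 in Mov10 KO and 787 ± 139 in WT (SD, n = 3 each), and limma gave a log2 fold change of -0.05 with a 95% interval of -0.37 to 0.26 (adjusted p = 0.811). The interval covers 0.776-fold to 1.20-fold of the WT level. The direction turned without Mov10 KO replicate 1 (log2 fold change 0.03) and without WT replicate 1 (0.08).

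Cyba (ENSMUSG00000006519, chromosome 8, 123151515 to 123159669), which shares the flavocytochrome with Cybb, had 131, 169.8 and 263 normalized reads in Mov10 KO, against 251, 212 and 216 in WT. Mov10 KO replicates 1 and 2 lay below all WT libraries and replicate 3 above them. The log2 fold change was -0.32 (95% interval -0.86 to 0.22, adjusted p = 0.381), and without Mov10 KO replicate 3 it was -0.59 and passed the threshold (adjusted p = 0.0371). In Mov10 KO, replicate 1 rested on 98 reads, with an exact 95% Poisson interval of 107 to 160.2 normalized reads, and replicate 3 on 182 reads, with an interval of 226 to 305. These intervals cover counting error alone and treat each read as an independent count.

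The ratio of Cybb to Cyba within a library does not depend on how libraries were scaled. It was 5.07, 4.92 and 2.87 in Mov10 KO and 3.75, 3.19 and 3.42 in WT. Mov10 KO libraries lay on both sides of WT (exact two-sided permutation p = 0.4, and 0.4 after adjustment over the 3 ratios tested, where the smallest p that 3 against 3 allows is 0.1).

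Ncf1 (ENSMUSG00000015950, chromosome 5, 134248907 to 134258479, GRCm39) was the subunit whose footprints rose. It had 335, 383 and 434 normalized reads in Mov10 KO libraries, on 250, 237 and 300 recovered reads, against 249, 236 and 226 in WT libraries, on 383, 384 and 331 recovered reads. Every Mov10 KO library was above every WT library, which held in the same direction for 16.9% of all tested genes. Means were 384 ± 49.4 in Mov10 KO and 237 ± 11.6 in WT (SD, n = 3 each), 1.62-fold higher, with a log2 fold change of 0.69 (SE 0.13, 95% interval 0.40 to 0.98, limma adjusted p = 0.00732). Count models on the recovered reads also called it, at 0.72 on the log2 scale in edgeR (adjusted p = 0.00203) and 0.70 in DESeq2 (adjusted p = 0.000182). The call was lost without WT replicate 3 (adjusted p = 0.0547) and without the variance trend (adjusted p = 0.0737), and the adjusted p ranged from 0.000182 to 0.0737 over 16 alternatives.

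The 3' part of the Ncf1 gene, 4303 bases from 134248907 to 134253209, is also covered by Gtf2ird2, a gene of a transcription factor family on the opposite strand, and whether the authors counted by strand is not given in the sources used here. Gtf2ird2 had 128.7, 51.8 and 44.9 normalized reads in Mov10 KO and 55.8, 66.9 and 66.8 in WT (log2 fold change 0.09, adjusted p = 0.894). Its mean was higher in Mov10 KO by 12.0 normalized reads, against 148 for Ncf1. That difference rests on Mov10 KO replicate 1, and the medians of Gtf2ird2 went the other way (51.8 in Mov10 KO, 66.8 in WT). Whole-gene values do not show how many reads fell in the shared bases, so the part of the overlap in the Ncf1 values was not tested. The other 4 subunit genes overlap no gene with reads.

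Ncf4 (ENSMUSG00000071715, chromosome 15, 78129001 to 78146780) had 172, 119.7 and 240.2 normalized reads in Mov10 KO, against 195, 213 and 209 in WT. Mov10 KO replicates lay below and above the narrow WT range. The log2 fold change was -0.27 (95% interval -0.81 to 0.26, adjusted p = 0.454). The ratio of Ncf1 to Ncf4 was 1.95, 3.20 and 1.81 in Mov10 KO and 1.27, 1.11 and 1.08 in WT, 1.95-fold higher, with no overlap between the groups (exact two-sided permutation p = 0.1, the smallest possible, and 0.3 adjusted over the 3 ratios). The ratio was highest in Mov10 KO replicate 2, the library with the fewest Ncf4 reads, and the fold on the log2 scale was 0.71 without that library, against 0.97 with it.

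Rac2 (ENSMUSG00000033220, chromosome 15, 78443367 to 78456983) had 229, 319 and 353 normalized reads in Mov10 KO, against 312, 298 and 319.6 in WT. The Mov10 KO libraries spanned the WT range, with replicate 1 lowest and replicate 3 highest. The log2 fold change was -0.07 (95% interval -0.44 to 0.31, adjusted p = 0.808), and it turned to 0.12 without Mov10 KO replicate 1. Rac1, the close paralogue that many cell types express, had 333, 249 and 201 normalized reads in Mov10 KO and 366, 327 and 354 in WT (log2 fold change -0.45, adjusted p = 0.113). The ratio of Rac2 to Rac1 was 0.690, 1.28 and 1.76 in Mov10 KO and 0.851, 0.910 and 0.904 in WT, again with overlap (exact two-sided permutation p = 0.4, and 0.4 adjusted). How reads matching both paralogues were counted is not given in the sources used here.

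**Figure D2:**
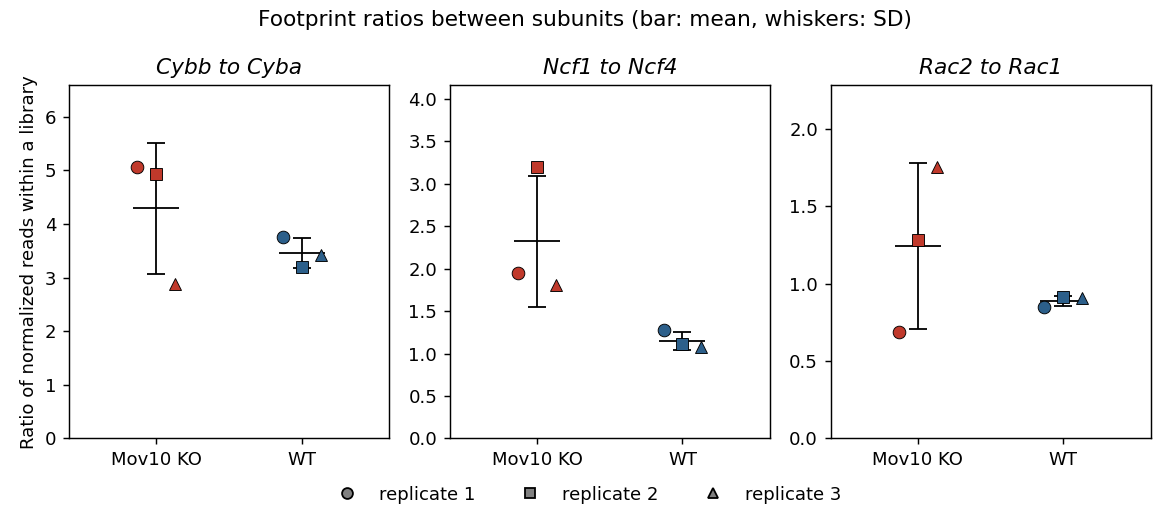
Ratio of normalized reads of 2 genes within each library (vertical axis, from 0) for 3 gene pairs, Mov10 KO left and WT right, with the mean and SD. Ncf1 to Ncf4 lies at 1.81 to 3.20 in Mov10 KO and 1.08 to 1.27 in WT, and the other 2 pairs overlap between the groups.

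To set the subunits beside each other, levels were divided by the gene length in the deposited table, which includes untranslated bases. Per kilobase, Mov10 KO libraries held 181 ± 65.3 normalized reads of Cyba, 129.7 ± 14.6 of Cybb, 105 ± 13.5 of Ncf1, 96.8 ± 20.6 of Rac2 and 87.7 ± 29.9 of Ncf4 (SD, n = 3). No 2 neighbours in that order were apart beyond their SDs. In WT the order was Cyba at 218 ± 20.7, Cybb at 135 ± 23.9, Ncf4 at 102 ± 4.57, Rac2 at 99.8 ± 3.58 and Ncf1 at 64.6 ± 3.16 normalized reads per kilobase. Cyba and Cybb, Cybb and Ncf4, and Rac2 and Ncf1 were apart beyond their SDs in WT, whereas Ncf4 and Rac2 were not. Ncf1 was thus the lowest per kilobase in 3 of 3 WT libraries, and in none of the Mov10 KO libraries.

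The 5 genes together summed to 1534, 1828 and 2048 normalized reads in Mov10 KO and 1950.3, 1637 and 1709 in WT, with overlap. Mov10 KO replicate 3 held the highest value of its group for Cyba, Ncf1, Ncf4 and Rac2, but not for Cybb. The coefficient of variation was 36.1% for Cyba, 34.1% for Ncf4, 21.3% for Rac2, 12.9% for Ncf1 and 11.3% for Cybb in Mov10 KO, against 9.49%, 4.48%, 3.59%, 4.90% and 17.7% for the same genes in WT. Cybb was the subunit that varied more in WT. Over the 6307 genes averaging 50 normalized reads or more, the median was 21.5% in Mov10 KO and 7.61% in WT, and the Mov10 KO value was the larger in 87.2% of genes.

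The genes whose 6-library pattern was most like that of each subunit were sought among 6188 protein-coding genes by the root mean square distance of log2 values centred on each gene's mean. For Ncf1 these were Tra2a, a splicing regulator, at a distance of 0.041, and Ppia, the cytosolic cyclophilin A, at 0.046, with log2 fold changes of 0.69 and 0.64, a direction and size that the choice by likeness fixes. For Cybb they were Trp53 (0.068) and Alg8 (0.073), for Cyba Pdcd10 (0.069) and Arhgap4 (0.075), for Ncf4 Tmed10 (0.073) and Ctns (0.080), and for Rac2 Sypl (0.054) and Nedd4l (0.055). No subunit was the nearest to another. Distances among the 5 subunits ran from 0.19 between Cybb and Rac2 to 0.55 between Ncf1 and Ncf4. With 6 libraries, such likeness describes these samples alone.

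**Figure D3:**
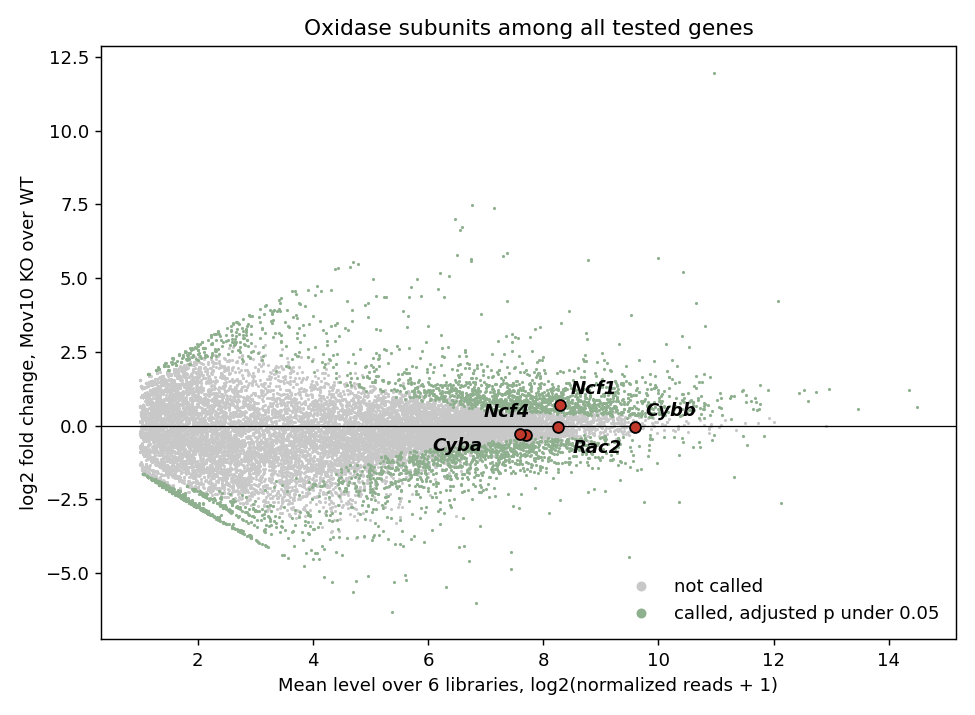
Log2 fold change, Mov10 KO over WT (vertical axis), against mean level, log2(normalized reads + 1) (horizontal axis), for 17114 tested genes, with called genes in green. Ncf1 lies at 0.69 among called genes, and Cybb, Cyba, Ncf4 and Rac2 lie between -0.32 and -0.05 among genes not called.

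Of 22 tested genes that assemble, activate or regulate the oxidase, 3 were called higher, 2 lower and 17 not called, with a median log2 fold change of -0.14. The shares over all tested genes were 10.3% higher and 10.9% lower. When only the 6307 genes averaging at least 50 normalized reads were fitted, 1532 were called higher and 1158 lower. In that fit 3 of these partners and regulators were higher and 3 lower, so their counts do not stand out. Among the kinases, Prkcd, a protein kinase C that phosphorylates Ncf1, had 1375, 1292 and 938 normalized reads in Mov10 KO against 599, 576 and 576 in WT, and was higher by 1.02 on the log2 scale (SE 0.14, limma adjusted p = 0.00151). It stayed past the threshold in 16 of 16 alternatives. Mapk14 (p38 alpha), another kinase of the Ncf1 protein, was lower, at 548 ± 99.9 normalized reads in Mov10 KO and 908 ± 20.4 in WT (log2 fold change -0.74, adjusted p = 0.00608). Its call was lost without the variance trend (adjusted p = 0.0793). Prkcb, Prkca, Pak1, Pak2, Akt1 and Irak4 were not called, with log2 fold changes between -0.78 and 0.26.

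Dock2, the exchange factor that loads Rac proteins with GTP in blood cells, had 2071, 2091 and 2139 normalized reads in Mov10 KO against 1365, 1483 and 1440.5 in WT, a log2 fold change of 0.56 (SE 0.06, limma adjusted p = 0.000465). That call too was lost without the variance trend (adjusted p = 0.0946). Arhgdia, which holds inactive Rac proteins in the cytosol, was lower, at 330.1 ± 37.4 in Mov10 KO and 485 ± 29.9 in WT (log2 fold change -0.56, adjusted p = 0.0119), which did not pass when any 1 WT library or the variance trend was left out (adjusted p up to 0.12). Its blood cell relative Arhgdib had 964 ± 25.2 normalized reads in Mov10 KO and 955 ± 113 in WT (adjusted p = 0.903). The exchange factors Vav1, Vav3 and Prex1 were not called. Pik3c3, the lipid kinase whose product on the phagosome membrane is bound by Ncf4, was higher, with 338, 474 and 401 normalized reads in Mov10 KO against 196, 185 and 192 in WT (log2 fold change 1.06, adjusted p = 0.00154), in 16 of 16 alternatives. Its partner Pik3r4 had 109 ± 31.1 in Mov10 KO and 105 ± 9.43 in WT (adjusted p = 0.990). Cybc1, a chaperone needed for the flavocytochrome, had 162, 161.7 and 208 normalized reads in Mov10 KO against 127, 126 and 132 in WT and did not pass (log2 fold change 0.45, adjusted p = 0.0770).

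**Figure D4:**
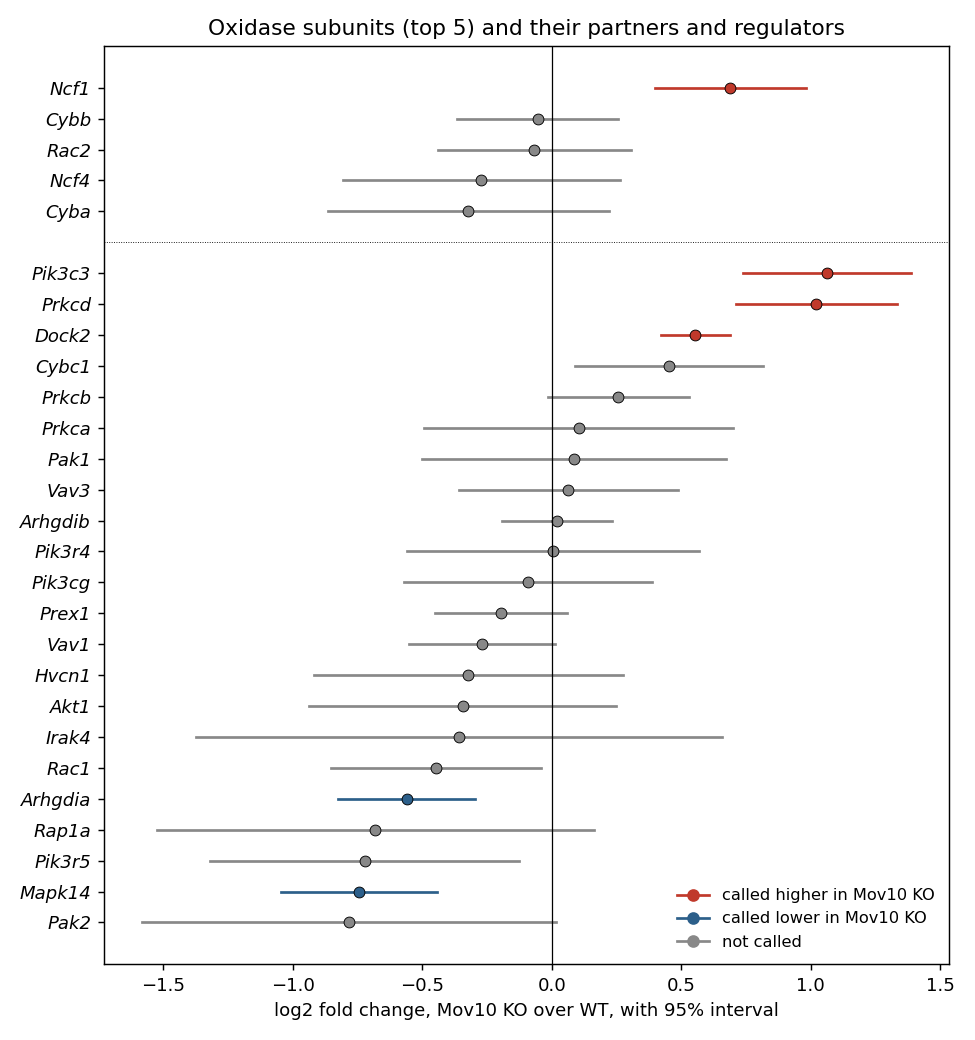
Log2 fold change, Mov10 KO over WT, with its 95% interval (horizontal axis) for the 5 oxidase subunits above the dotted line and 22 partners and regulators below it, each sorted by value. Ncf1 is the subunit called higher, at 0.69, and among the partners Pik3c3, Prkcd and Dock2 are called higher and Arhgdia and Mapk14 lower.

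Of 8 tested transcription factors known to act on oxidase genes, 2 were called higher, 3 lower and 3 not called, with a median log2 fold change of -1.01, where 10.3% of all tested genes were called higher and 10.9% lower. The 2 higher calls fell to 0 with library totals, without the variance trend and without any 1 of the WT libraries. Spi1, the gene of PU.1, whose core letters were searched in the promoters above, had 135, 186 and 174 normalized reads in Mov10 KO against 109, 95.7 and 96.8 in WT (log2 fold change 0.70, limma adjusted p = 0.0265). Irf8, which pairs with Spi1 on ETS-IRF composite sites, had 351, 264 and 324 normalized reads in Mov10 KO against 609.6, 602 and 598 in WT (log2 fold change -0.95, adjusted p = 0.00115). The groups were apart for both genes, in opposite directions. Cebpe, a factor of late granulocyte maturation, was higher (log2 fold change 0.75, adjusted p = 0.0193), and Irf1 and Elf1 were lower (-1.31 and -0.75, adjusted p = 0.0101 and 0.00929). Irf8 stayed past the threshold in 16 of 16 alternatives. In those alternatives the adjusted p of Spi1 reached 0.113 and that of Cebpe 0.092. Irf1 lost its call without WT replicates 1 and 2 in turn (adjusted p up to 0.0808), and Elf1 without WT replicates 2 and 3 and without the variance trend (adjusted p up to 0.0777).

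The pentose phosphate pathway supplies the NADPH that the oxidase consumes. Of its 7 tested enzymes 1 was higher, 2 lower and 4 not called, with a median log2 fold change of -0.33, set against the same 10.3% and 10.9% of all tested genes. Taldo1, transaldolase of the non-oxidative branch, had 101.9, 90.6 and 101 normalized reads in Mov10 KO against 332, 307 and 302 in WT (log2 fold change -1.67, limma adjusted p = 0.000100). Pgls, of the oxidative branch, was lower (log2 fold change -1.23, adjusted p = 0.00888), though without each WT library in turn its adjusted p rose to as much as 0.061, and its gene overlaps Niban3 on the same strand, which was higher (log2 fold change 1.78, adjusted p = 0.000639). Rpia was higher, at 436 ± 1.86 in Mov10 KO and 226 ± 11.3 in WT (log2 fold change 0.95, adjusted p = 0.000501). G6pdx and Pgd, the enzymes that make NADPH itself, were not called. G6pdx had 243 ± 26.6 normalized reads in Mov10 KO and 289 ± 31.1 in WT (log2 fold change -0.25, adjusted p = 0.231), and Pgd had 476 ± 116 in Mov10 KO and 587 ± 23.7 in WT (-0.33, adjusted p = 0.204).

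The other oxidases of the family were hardly read. Of Nox1, Nox3, Nox4, Noxo1, Noxa1, Duox1, Duox2, Duoxa1 and Duoxa2, which serve epithelia, thyroid, inner ear and other tissues, 4 of 9 passed the filter and none was called, in either direction. With 21.2% of all tested genes called in either direction, no call among 4 genes this low is not informative. Their summed level was 12.9 to 18.8 normalized reads in Mov10 KO and 3.41 to 4.54 in WT, where 3 reads in 1 library amount to 4.02 to 4.85 and 1.84 to 2.04 normalized reads. Duoxa1 and Duoxa2 had no read in any library.

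Footprints of marker genes of cell types that carry the oxidase were summed as well, and these sums do not measure cell numbers. The counts of called markers are set against the 10.3% of all tested genes called higher and 10.9% called lower. The summed neutrophil markers ranged from 11309 to 12121 normalized reads in Mov10 KO and from 12567 to 13807 in WT, with 5 of 14 called higher and 6 lower. Among the lower genes, S100a8 had 371 ± 57.4 normalized reads in Mov10 KO and 2246 ± 101 in WT, a gap wider than that between the mean sums. The lower neutrophil sum in Mov10 KO thus rests on that gene. Monocyte and macrophage markers summed to 1896 to 2146 in Mov10 KO and 1827 to 1946 in WT, with overlap between the groups and 1 of 12 higher and 2 lower. Eosinophil markers summed to 19240 to 21533 in Mov10 KO and 12989 to 16063 in WT, with 4 of 9 higher and 2 lower. The 4 early granule genes summed to 38838 to 40641 in Mov10 KO and 21533 to 26486 in WT, with 2 higher and 1 lower. Most of that sum was Mpo, at 29006 ± 782 normalized reads in Mov10 KO and 12660.3 ± 1426 in WT (limma adjusted p = 2.02e-05), while Ctsg was higher (log2 fold change 0.55), Prtn3 lower (-0.99) and Elane not called (-0.02). B cell markers, another cell type that expresses oxidase subunits, summed to 2095 to 2292 in Mov10 KO and 1055 to 1098 in WT, with 6 of 12 higher. No gene of these lists was at 0 in all libraries of either group. Their part in the higher Ncf1 values was not tested.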

How the data were processed

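Footprints were measured in 6 libraries. The deposited signal values are gene-level reads scaled by a library-wide factor: of the nonzero entries, 99.976% came to whole counts within 0.05 of a read. The deposited log2 fold changes and p-values are the authors' own, by a test not given in the sources used here, and no result rests on them. The build is GRCm39, per the submitters' processing notes. The sources used here name no aligner, counter, annotation or strand setting. Columns headed con were taken as WT by their numbers.

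Whole reads were recovered by division. The fits omit 5 genes whose values gave no whole reads (Rpl27, Ssr4, Igkc, Camp and Rps29), none of them a subunit. limma 3.58.1 (R 4.3.3) was run with a variance trend on log2(value + 1), genotype as the only term. edgeR 4.0.16 (quasi-likelihood, TMM, filterByExpr) and DESeq2 1.42.0 (Wald test) were run on recovered reads. Ratios were tested by exact permutation over 20 regroupings. Figures used matplotlib 3.10.9.

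The members, lists and tests were chosen with earlier results of these data known. Named genes were the members, Mov10, Kit, Rac1, up to 4 genes per list with the smallest p, genes needed to name a count of 5 or fewer, and the 2 nearest genes per member. Other genes were named after their values were seen. Some planned results are not reported here. Same-numbered libraries did not deviate together, so numbers were not used as pairs. Alternatives were another pseudocount, other filters and scalings, no trend, a replicate block, equal depth by thinning, both count models and each library left out.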

Additional observations from a re-analysis of the deposited data

How the results depend on the processing

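The subunits kept their direction and their side of the threshold in the alternatives tried, except that Ncf1 lost its call in 2, Cyba gained one without Mov10 KO replicate 3, Cybb turned without Mov10 KO replicate 1 or WT replicate 1, and Rac2 turned without Mov10 KO replicate 1. The log2 fold change of Ncf1 was 0.69 in all fits on the deposited scaling with all libraries and a pseudocount of 1, but did not pass without the variance trend (adjusted p = 0.0737, which left 0 members called higher in place of 1). Its value was 0.46 with library totals, 0.73 with upper-quartile scaling and 0.71 at equal depth. Library totals moved the median of all genes from -0.17 to -0.37. Leaving out libraries in turn gave log2 fold changes of 0.60 to 0.78 for Ncf1, -0.15 to 0.084 for Cybb, -0.59 to -0.094 for Cyba, -0.52 to -0.02 for Ncf4 and -0.19 to 0.12 for Rac2, with 0 to 1 members higher and 0 to 1 lower. The cause of these changes was not tested. The Mov10 KO minus WT difference in the log2 ratio ranged over 0.13 to 0.54 for Cybb to Cyba, 0.71 to 1.12 for Ncf1 to Ncf4 and 0.08 to 0.76 for Rac2 to Rac1 when libraries were left out.

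Genes called numbered 1757 higher and 1871 lower, and 836 to 2090 and 403 to 2497 without each library in turn. Lower calls were 2852 with library totals and 1158 with a mean of at least 50 normalized reads, where fewer genes are tested. Partners and regulators called lower were 6 with library totals and 0 without the trend, and 1 to 5 with libraries left out. Transcription factors called higher were 0 with library totals and 0 without the trend, and 0 to 2 with libraries left out, with 1 to 4 lower. Pentose phosphate enzymes called lower were 5 with library totals and 1 to 3 with libraries left out. With libraries left out, other oxidases called higher were 0 to 1. Duox1 had 4, 0 and 0 reads in Mov10 KO and 0, 5 and 3 in WT. Its log2 fold change was -0.32 in the main limma fit and turned to 0.091 with DESeq2. With libraries left out it ranged from -1.21 to 0.12.

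With the replicate number as a block, the log2 fold change of Ncf1 was 0.69 (adjusted p = 0.00472) and no subunit changed its call. The numbers carry no stated pairing, and the correlation of deviations between same-numbered libraries was -0.029, -0.0055 and -0.021 over 6307 genes. In Mov10 KO the subunits rest on 74 to 523 reads per library, against 301 to 1453 in WT.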
